A study of Mus musculus with 2 samples.

Results

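Collagen genes are described here across the cell classes and the 2 libraries of a single-cell RNA sequencing study of mouse colon tumour tissue. They were taken by symbol, as every gene named Col, a number, a and a number, which gave 44 of the 55357 genes in the deposited matrices. The library labelled KO came from ECM1Flox/Flox, Villin-Cre mice, which carry floxed Ecm1 and a Cre recombinase that the Villin promoter drives in intestinal epithelium. That labelled WT came from ECM1Flox/Flox mice without Cre. Both groups therefore carried the floxed alleles, and the Cre was the labelled difference. The labels do not state the age or sex of the mice, how many were pooled per library, the tumour model or which exons are floxed. Ecm1 encodes a secreted matrix protein.

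Collagens are proteins whose 3 chains wind into a triple helix, most of them secreted and a few transmembrane. Fibrillar collagens (types I, III and V here) assemble into the fibres of connective tissue, while type IV collagen forms the sheet-like network of basement membranes, which type XV and type XVIII collagens border. Type VI collagen makes beaded filaments, type VII anchors epithelium to the tissue beneath it, and the fibril-associated types IX, XII, XIV and XVI bind the surface of fibres. In the intestine, fibroblasts are known as the main source of the fibrillar types, and endothelial cells and the mural cells that wrap small vessels as sources of vascular basement membrane. Several chains work only with a partner, so the partner genes Col1a1 and Col1a2, Col4a1 and Col4a2, or the 3 Col9 genes are of interest side by side.

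Promoter sequences of 35 of the 44 members were found in the RefSeq promoter table (build GRCm38.p6), in 38 windows of 300 bases around the annotated start. The 6 windows below are shown because they belong to the genes that separate the cell classes in the results: Col4a1 and Col4a2 (endothelial, mural and fibroblast-like cells), Col1a2 and Col3a1 (fibroblast-like cells), Col9a2 (epithelial-like cells), and Col16a1 (fibroblast-like and epithelial-like cells). They lie at chr8:11312777-11313076 on the minus strand (Col4a1), chr8:11312555-11312854 on the plus strand (Col4a2), and on the plus strand at chr6:4505368-4505667 (Col1a2), chr1:45311288-45311587 (Col3a1), chr4:121039316-121039615 (Col9a2) and chr4:130047590-130047889 (Col16a1). Each is printed 5′ to 3′ on its gene's strand. Capitals mark matches, on either strand, of 4 motifs: CCAAT (the CCAAT box), TATAAA (the TATA box), GGGCGG (the GC box) and CTTTGA (the core bound by TCF/LEF factors of the Wnt pathway).
Col4a1: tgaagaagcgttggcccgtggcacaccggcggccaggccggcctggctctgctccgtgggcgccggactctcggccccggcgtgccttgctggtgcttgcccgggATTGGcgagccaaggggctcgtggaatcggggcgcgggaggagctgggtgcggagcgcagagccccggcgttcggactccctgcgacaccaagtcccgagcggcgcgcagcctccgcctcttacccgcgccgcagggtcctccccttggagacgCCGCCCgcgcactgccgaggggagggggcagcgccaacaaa
Col4a2: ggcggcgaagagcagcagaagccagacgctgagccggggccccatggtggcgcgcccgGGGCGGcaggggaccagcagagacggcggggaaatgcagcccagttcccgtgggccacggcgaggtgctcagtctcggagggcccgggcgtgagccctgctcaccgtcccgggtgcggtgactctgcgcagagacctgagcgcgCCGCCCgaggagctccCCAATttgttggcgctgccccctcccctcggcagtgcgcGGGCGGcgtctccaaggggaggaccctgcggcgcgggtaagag
Col1a2: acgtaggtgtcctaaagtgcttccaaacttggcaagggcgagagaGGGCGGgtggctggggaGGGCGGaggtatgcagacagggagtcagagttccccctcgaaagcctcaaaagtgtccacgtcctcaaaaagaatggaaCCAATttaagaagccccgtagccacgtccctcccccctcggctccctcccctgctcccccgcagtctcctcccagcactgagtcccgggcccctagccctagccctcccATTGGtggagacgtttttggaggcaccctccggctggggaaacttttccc
Col3a1: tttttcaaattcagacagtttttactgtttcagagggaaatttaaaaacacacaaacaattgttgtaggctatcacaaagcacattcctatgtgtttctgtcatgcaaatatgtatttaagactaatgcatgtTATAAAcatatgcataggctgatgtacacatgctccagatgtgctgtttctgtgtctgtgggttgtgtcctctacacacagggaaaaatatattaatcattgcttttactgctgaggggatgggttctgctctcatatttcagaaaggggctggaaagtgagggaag
Col9a2: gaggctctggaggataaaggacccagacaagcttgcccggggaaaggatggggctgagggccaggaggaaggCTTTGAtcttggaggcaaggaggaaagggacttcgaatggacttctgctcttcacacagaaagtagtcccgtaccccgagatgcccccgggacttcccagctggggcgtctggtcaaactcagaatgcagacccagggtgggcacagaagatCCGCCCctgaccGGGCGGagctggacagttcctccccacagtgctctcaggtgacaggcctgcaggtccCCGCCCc
Col16a1: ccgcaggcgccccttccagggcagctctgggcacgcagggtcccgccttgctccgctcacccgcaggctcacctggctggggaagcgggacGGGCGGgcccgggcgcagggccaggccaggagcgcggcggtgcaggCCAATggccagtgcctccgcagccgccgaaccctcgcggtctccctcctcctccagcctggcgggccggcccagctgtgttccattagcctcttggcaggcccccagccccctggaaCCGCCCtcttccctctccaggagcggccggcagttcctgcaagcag

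Col4a1 and Col4a2 were read in opposite directions from starts 21 bases apart, and their windows overlapped by 78 bases. Col1a2 held CCAAT matches and GC boxes, Col3a1 held a TATA match and no GC box, and Col9a2 held a CTTTGA match with 3 GC boxes. Of the 35 matched members, 13 held CCAAT, against 37.4% of all 32544 windows in the table, and 22 held GGGCGG, against 35.9%. TATAAA was in 5 members (13.6% of all windows) and CTTTGA in 9 (16% of all windows). These are matches of letters, not binding sites.

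The library labelled KO held 4896 barcodes with a median of 7950 unique molecular identifiers (UMIs, 1 per captured RNA molecule), and the library labelled WT held 9512 barcodes with a median of 2706. After filtering, 4233 and 8262 cells remained, and they shared 13 cell barcodes between libraries. The protocol in the labels (RNA from lysed tissue, random priming) is a bulk one, so the capture chemistry is unknown. With 1 library per genotype there was no replicate and no test between genotypes: all intervals below are 95% intervals that cover counting error only. In CPM, the UMIs of a gene per 1000000 UMIs of a class, the targeted gene Ecm1 was not lower in epithelial-like cells labelled KO (40.7 CPM, 2328 UMIs) than in those labelled WT (34.2 CPM, 995 UMIs), a ratio of 1.19 (interval 1.10 to 1.28). This count went against the KO label, though UMIs from outside the deleted exons would not show a deletion. The libraries also differed in Xist (103646 and 7 UMIs) and in the Y-linked gene Ddx3y (0 and 6175 UMIs), so genotype, sex genes, depth and library cannot be told apart in any comparison below.

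Levels below are in CPM. They are not divided by transcript length, so a level is compared between classes and libraries for 1 gene, not between genes. Classes were named from marker genes that include no collagen, and no collagen was used to group the cells. The fibroblast-like class held 56 cells labelled KO and 10 labelled WT, the endothelial-like class 194 and 16, the epithelial-like class 2264 and 1994, and the immune-like class 1435 and 6008. A mural-like group held 53 cells and 1 cell. Because stromal cells were this few in the library labelled WT, classes were ordered within the library labelled KO, and the genotypes are compared mainly in epithelial-like and immune-like cells. The 11 fibroblast markers summed to 8666 CPM in fibroblast-like cells labelled KO, 411 in endothelial-like, 46.6 in epithelial-like and 11.01 in immune-like cells. Classes were not free of markers of other cells. The 11 mural markers summed to 8493 CPM in fibroblast-like cells labelled KO, against 20371 in mural-like cells. In endothelial-like cells labelled KO, endothelial markers summed to 6699 CPM, plasma cell markers to 14094 and erythroid markers to 3185.

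Collagen transcripts were concentrated in the stroma. Under the KO label, collagen genes made up 2.60% of all UMIs of fibroblast-like cells (interval 2.57 to 2.64), 2.02% in mural-like cells and 0.480% in endothelial-like cells. They made up 0.0109% in epithelial-like cells and 0.00594% in immune-like cells. Under the WT label the shares were 3.61% (3.48 to 3.74) in its 10 fibroblast-like cells, 0.580% in endothelial-like, 0.00816% in epithelial-like and 0.00301% in immune-like cells. The order of the 4 classes was the same in both libraries. Of all collagen UMIs in cells labelled KO (46219), 42.1% came from fibroblast-like, 20.2% from mural-like, 17.5% from endothelial-like and 13.5% from epithelial-like cells, although epithelial-like cells were the most numerous. Of the 6573 collagen UMIs in cells labelled WT, 43.9% came from fibroblast-like and 36.1% from epithelial-like cells.

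All 44 members had at least 1 UMI, 29 had 50 or more over both libraries, and 15 had between 1 and 49, of which 6 had fewer than 10. The 15 were Col4a3, Col4a4, Col4a5, Col4a6, Col6a5, Col6a6, Col8a2, Col10a1, Col11a1, Col19a1, Col22a1, Col24a1, Col25a1, Col26a1 and Col28a1. Among 27 members with 50 or more UMIs in the 4 classes of the library labelled KO, the highest level was in fibroblast-like cells for 20, in epithelial-like for 5, in endothelial-like for 2 and in immune-like for 0. For Col23a1, which is among the 20, the fibroblast-like level rested on 6 UMIs. Of all 15397 genes measured by the same rule, 23.8% were highest in fibroblast-like, 45.9% in epithelial-like, 16.1% in endothelial-like and 14.1% in immune-like cells. The mural-like group, which was not among the 4 classes, lay above the highest of them for 6 members, including Col4a1, Col4a2, Col5a3, Col6a3 and Col18a1. The other was Col17a1, with 1 UMI there.

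**Figure D1:**
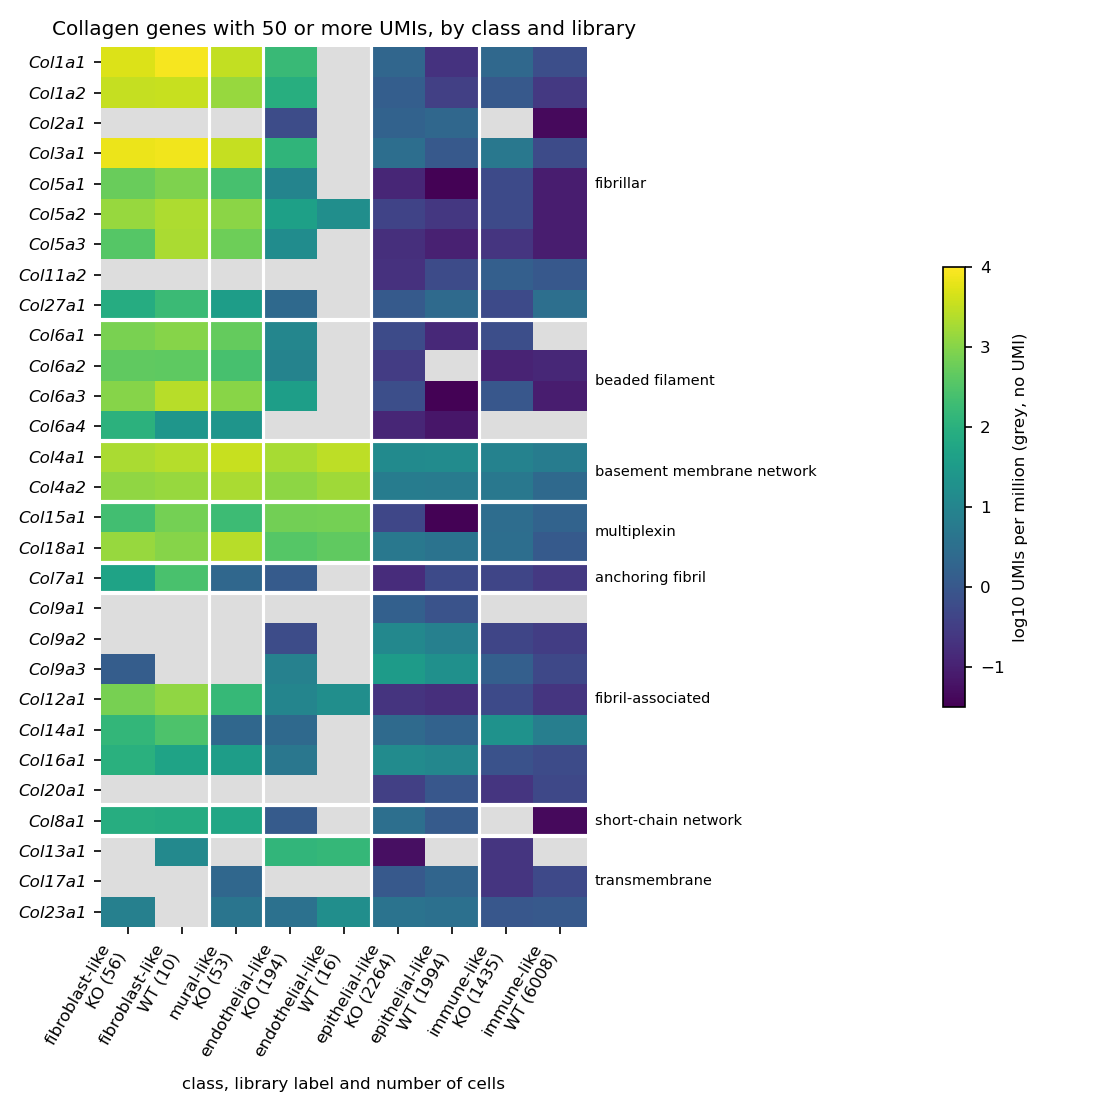
Each row is 1 of the 29 collagen genes with 50 or more UMIs, ordered by structural group, and each column is a class in the library labelled KO or WT with its number of cells. Colour gives log10 CPM of the class, and grey marks no UMI. The type I, III, V and VI genes were brightest in the fibroblast-like and mural-like columns, Col4a1 and Col4a2 were bright in all stromal and endothelial columns, and Col9a2 and Col9a3 were brightest in the epithelial-like columns.

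The type I, III and V genes were far higher in fibroblast-like and mural-like cells than in the other classes. Col3a1, the chain of type III collagen, reached 6738 CPM in fibroblast-like, 3323 in mural-like, 123 in endothelial-like, 5.11 in immune-like and 3.04 in epithelial-like cells under the KO label. Under the WT label it reached 7692 in fibroblast-like, 0.574 in immune-like and 1.07 in epithelial-like cells, with no UMI in the 16 endothelial-like cells. Col1a1, which encodes the alpha 1 chain of type I collagen, reached 5107 in fibroblast-like cells labelled KO and 8367 in those labelled WT, and its partner Col1a2 3327 and 3377. Epithelial-like Col1a1 labelled KO stood at 0.0411% of its fibroblast-like level, Col1a2 at 0.0410% and Col3a1 at 0.0452%. The type V chains Col5a1, Col5a2 and Col5a3, which join type I fibres and limit their width, reached 556, 1407 and 350 in fibroblast-like cells labelled KO. All 3 were below 1 CPM in epithelial-like cells of both libraries.

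The endothelial-like counts of the type I and III genes came mostly from 1 cell per gene. Of 288 Col1a1 UMIs in 194 endothelial-like cells labelled KO, 212 came from 1 cell, and of 207 Col3a1 UMIs 171 came from 1 cell. Without the richest cell of each gene, Col1a1 went from 171 to 45.9 CPM and Col3a1 from 123 to 21.8. All 11 mural markers and 8 of the 11 fibroblast markers had UMIs in this class, summing to 474 and 411 CPM. Their part in these values was not tested.

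The beaded filament genes followed the same order. Col6a1, Col6a2 and Col6a3, the 3 classical chains of type VI collagen, reached 784, 462 and 1019 CPM in fibroblast-like cells labelled KO and 1013, 425 and 2539 in those labelled WT. In mural-like cells labelled KO they reached 501, 254 and 1054, and in epithelial-like cells 0.559, 0.297 and 0.664. Col6a4, a chain related to Col6a3, reached 107 in fibroblast-like cells and had no UMI in endothelial-like or immune-like cells labelled KO. Col12a1, a fibril-associated chain, reached 758 in fibroblast-like and 156 in mural-like cells labelled KO, and Col7a1, the anchoring fibril chain, 48.2 and 2.17. Both were below 1 CPM in epithelial-like cells of either library.

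The basement membrane genes were shared among stromal and vascular cells. Col4a1 reached 1962 CPM in fibroblast-like, 1902 in endothelial-like and 3401 in mural-like cells labelled KO, with intervals of the first 2 that overlapped (1863 to 2065 and 1836 to 1969). Its partner Col4a2 reached 1235, 1189 and 2040 in the same classes. Endothelial-like cells labelled WT held 2785 for Col4a1 and 1674 for Col4a2, and fibroblast-like cells 2401 and 1426. By UMIs not divided by length, these 2 genes led the collagens of endothelial-like cells, with 39.6% and 24.8% of their collagen UMIs labelled KO and 48% and 28.9% labelled WT. Epithelial-like cells held 13.3 and 13.97 of Col4a1, and 6.31 and 6.23 of Col4a2, in the libraries labelled KO and WT. Immune-like cells held 8.90 and 6.53 of Col4a1, with intervals below the epithelial-like ones in both libraries. For Col4a2 they held 5.11 and 2.38, and the intervals overlapped in the library labelled KO.

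Of the 2 multiplexins, whose C-terminal fragments are known as inhibitors of vessel growth, Col15a1 was highest in endothelial-like cells and Col18a1 in mural-like cells labelled KO. Col15a1 reached 676 CPM in endothelial-like cells labelled KO (1140 UMIs), 219 in fibroblast-like and 0.472 in epithelial-like cells. Labelled WT, it stood at 696 in endothelial-like and 725 in fibroblast-like cells, so the order seen under KO did not hold there (42 and 58 UMIs). Col18a1, the source of endostatin, reached 2545 in mural-like, 1447 in fibroblast-like, 358 in endothelial-like and 4.93 in epithelial-like cells labelled KO. Col13a1, a transmembrane collagen of cell-matrix contacts, was highest in endothelial-like cells and reached 132 (223 UMIs in 50 of 194 cells) labelled KO and 149 (9 UMIs) labelled WT. In fibroblast-like cells labelled KO it had no UMI, where a count of 0 allows up to 4.01 CPM, and in immune-like cells it had 2 UMIs.

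Fibroblast-like cells were not uniform in their collagens. Clustered apart from the other cells, with no collagen gene used, they split into cluster 28 (led by Serpina3n, Sfrp1 and Dpt; 14 cells labelled KO, 5 labelled WT), cluster 29 (led by Mmp10, Mmp13 and Il11; 23 and 5 cells) and cluster 31 (led by Tagln, Acta2 and Pdlim3; 19 and 0 cells). The marker lists named them fibroblast-like, tumour-activated fibroblast-like and subepithelial fibroblast-like. The tumour-activated list was uneven in cluster 29 labelled KO. Il11 stood at 3133 CPM, Acta2 at 2150, Inhba at 1748 and Tagln at 1153, but Thbs2 at 37.5, Fap at 18.8, Lrrc15 at 2.68 and Cthrc1 at 0. Acta2 and Tagln were higher in cluster 31 and in mural-like cells. The subepithelial list was uneven too. Labelled KO, Tnc stood at 1745 CPM in cluster 29 against 555 in cluster 31, and F3 at 772 against 165. Wnt5a (729 and 821) and Foxl1 (42.9 and 60.4) differed less. Bmp5, Bmp7 and Enho were higher in cluster 31 (354, 233 and 173) than in cluster 29 (85.8, 72.4 and 13.4). So was Sox6, with 31 UMIs against 1. As a share of the UMIs of single cells labelled KO, collagens ran from 0.989% through a median of 3.09% to 7.399% in cluster 28, from 0.105% through 2.12% to 5.42% in cluster 29, and from 1.20% through 2.11% to 3.93% in cluster 31. The ranges of the 3 clusters overlapped. Col5a3 was among the leading genes of cluster 29 and Col12a1 among those of cluster 31, so their values below are a description of these clusters.

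Single genes separated these clusters more sharply than the sum. Col14a1, a fibril-associated chain of mature fibres, had 98 UMIs in cluster 28 labelled KO (778 CPM, 11 of 14 cells), 1 UMI in cluster 29, 3 in cluster 31 and 1 in mural-like cells. Labelled WT, it had 23 UMIs in cluster 28 and 0 in cluster 29. Col8a1, a short-chain network collagen, followed Col14a1 with 373 CPM in cluster 28 and between 21.4 and 56.4 in clusters 29, 31 and mural-like cells labelled KO. Among fibroblast-like UMIs labelled KO, 59 of 102 for Col14a1 and 26 of 63 for Col8a1 came from 1 cell per gene. Col5a3 had the opposite order: it reached 79.4 in cluster 28, 44.3 in cluster 31, 646 in cluster 29 and 620 in mural-like cells. UMIs of it were found in 6 of 14, 7 of 19, 21 of 23 and 44 of 53 cells. Col6a3 likewise stood at 492, 640, 1450 and 1054. Both genes were also higher in cluster 29 than in cluster 28 of the library labelled WT (Col5a3 2520 against 56.6, Col6a3 3178 against 283), with 5 cells in each cluster. These WT counts were uneven: 111 of 158 fibroblast-like Col5a3 UMIs and 164 of 203 Col6a3 UMIs came from 1 cell per gene.

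Cluster 31 stood out for Col12a1, at 1336 CPM against 453 in cluster 28 and 477 in cluster 29 labelled KO, and for Col4a5, a minor basement membrane chain, at 149 (37 of the gene's 49 UMIs in the whole study). The 5 cells of cluster 29 labelled WT held 1541 CPM of Col12a1, above cluster 31 labelled KO in value. However, 81 of the 100 fibroblast-like Col12a1 UMIs labelled WT came from 1 cell. Col6a4 was at 185 in cluster 31, 85.8 in cluster 29 and 15.9 in cluster 28 labelled KO. Col7a1 had 30 of its 36 fibroblast-like UMIs labelled KO, and all 21 labelled WT, in cluster 29. Of these, 19 of the 36 and 18 of the 21 came from 1 cell per library. Col3a1 was highest in cluster 28 in both libraries, at 11434 and 15688 CPM against 5004 and 5425 in cluster 29. Col1a1 did not follow it: cluster 28 and cluster 29 held 5590 and 5811 labelled KO, with overlapping intervals, and 4927 and 9342 labelled WT. Among the 669 fibroblast-like Col1a1 UMIs labelled WT, 435 came from 1 cell. Labelled KO, 665 of the 3818 came from 1 cell of cluster 29. How clusters 28 and 29 compare without that cell was not tested.

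**Figure D2:**
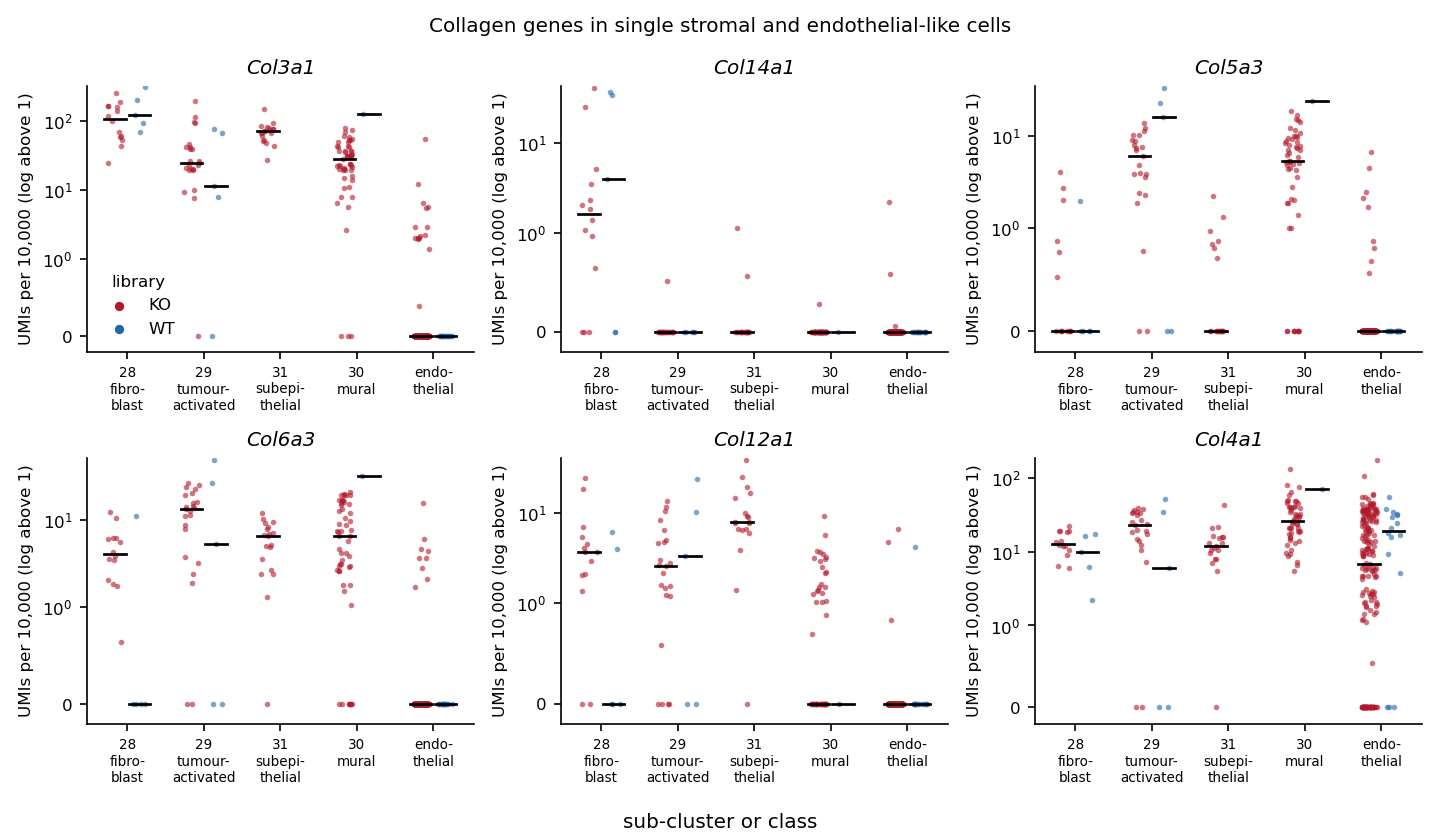
Each point is 1 cell of a stromal cluster or of the endothelial-like class, coloured by library, and black lines are medians. The vertical axis gives UMIs of the gene per 10,000 UMIs of the cell, linear up to 1 and logarithmic above. Col14a1 was detected in 11 of 14 cells of cluster 28 and in 1 of 23 cells of cluster 29 labelled KO, while Col5a3 was detected in 6 of 14 and 21 of 23.

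Ratios of paired chains need no length correction when the same pair is compared between cell groups. Col1a1 to Col1a2, which encode the 2 chains of type I collagen, stood at 0.987 (0.888 to 1.10) in cluster 28, 1.19 (1.08 to 1.31) in cluster 31, 2.22 (2.06 to 2.40) in cluster 29 and 2.29 (2.08 to 2.51) in mural-like cells labelled KO. In the library labelled WT the ratio was 0.791 in cluster 28 and 3.64 in cluster 29. Among fibroblast-like UMIs labelled WT, 435 of 669 for Col1a1 and 129 of 270 for Col1a2 came from 1 cell per gene. Labelled KO, 665 of 3818 and 353 of 2487 came from 1 cell per gene. Clusters 28 and 31 thus lay below cluster 29 and mural-like cells in the measured type I ratio. Part of the mural marker list moved with this split. Rgs5 stood at 2694 CPM in cluster 29 and 10551 in mural-like cells labelled KO, against 7.94 and 28.2 in clusters 28 and 31. Pdgfrb stood at 675 and 1192 against 175 and 217. Acta2, Tagln, Myh11 and Cnn1 did not follow the split and were highest in cluster 31. Acta2 stood at 6805 there, 2150 in cluster 29 and 3980 in mural-like cells. In cluster 29 labelled WT, Rgs5 was at 128. The part of these markers in the ratios was not tested. Col5a3 to Col5a1 put the same 4 groups in the same 2 pairs (0.0926 and 0.0940 against 1.26 and 2.44), and so did Col6a3 to Col6a1 (0.416 and 0.697 against 2.59 and 2.10). The other type VI pair, Col6a1 to Col6a2, did not. It was 1.94 in clusters 28 and 29, 1.97 in mural-like cells and 1.425 in cluster 31 labelled KO. Col4a1 to Col4a2 did not separate stromal from vascular cells: it was 1.59 in fibroblast-like, 1.60 in endothelial-like and 1.67 in mural-like cells labelled KO, and 1.68 and 1.66 in the first 2 labelled WT. In epithelial-like cells it was 2.11 (1.85 to 2.39) labelled KO, above the endothelial-like interval (1.51 to 1.69), and 2.24 labelled WT, where the intervals overlapped. The epithelial-like clusters were split: the ratio was 1.52 and 1.66 in cluster 1, but 3.61 and 6.42 in cluster 2 and 4.36 and 5.45 in cluster 3.

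**Figure D3:**
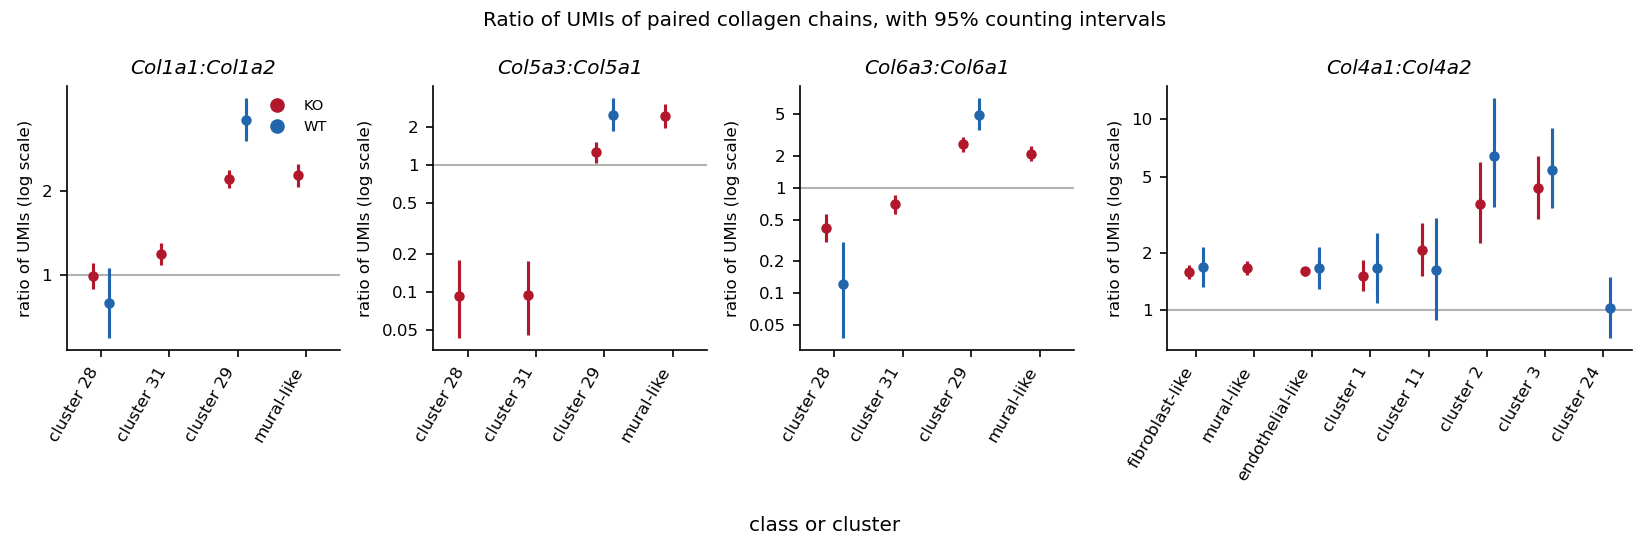
Points give the ratio of UMIs of 2 partner chains on a logarithmic axis, in clusters and classes of the libraries labelled KO and WT, and bars are 95% counting intervals. Labelled KO, cluster 29 and mural-like cells lay above clusters 28 and 31 for Col1a1 to Col1a2, Col5a3 to Col5a1 and Col6a3 to Col6a1. Col4a1 to Col4a2 stayed between 1.59 and 1.68 in fibroblast-like, mural-like and endothelial-like cells.

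Epithelial-like cells had a collagen profile of their own. The 5 members with their highest level in this class were Col9a1, Col9a2 and Col9a3, the 3 chains of type IX collagen, Col2a1, the fibrillar chain that type IX coats in cartilage, and Col17a1, the transmembrane collagen of hemidesmosomes. Col9a3 reached 32.6 CPM labelled KO (1866 UMIs) and 18.5 labelled WT (537 UMIs), and Col9a2 11.7 and 7.95. Col9a1 reached 1.54 and 0.792, Col2a1 1.66 and 2.20, and Col17a1 1.10 and 1.96. By value these 5 were highest here, but fibroblast-like cells labelled KO are so few that a count of 0 there allows up to 4.01 CPM. Col9a3 and Col9a2 exceeded that limit, and whether fibroblast-like levels of Col9a1, Col2a1 and Col17a1 were lower was not detectable at this depth. Immune-like cells had no Col9a1 UMI in the library labelled KO, no Col2a1 UMI there and 1 in that labelled WT, and 2 and 12 Col17a1 UMIs. Fibroblast-like and mural-like cells labelled KO had 1 Col9a3 UMI together and no Col9a2 or Col9a1 UMI. Col9a3 was found in 669 of 2264 epithelial-like cells labelled KO (29.5%) and in 16.5% labelled WT, against 0.836% and 0.183% of immune-like cells. At 1000 UMIs per cell the shares were 3.35% and 1.83% of epithelial-like and 0.146% and 0.0521% of immune-like cells. Median depths were 20164.5 and 10833 UMIs in epithelial-like and 3714 and 2386 in immune-like cells before thinning. Endothelial-like cells labelled KO held 14 Col9a3 UMIs (8.31 CPM), beside epithelial markers that summed to 4729 CPM in them and 12322 in epithelial-like cells. The part of those epithelial transcripts in the 14 UMIs was not tested.

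Other collagens with sizeable epithelial counts had a higher value in fibroblast-like cells labelled KO. Col16a1, a fibril-associated chain, reached 14.3 and 11.3 CPM in epithelial-like cells labelled KO and WT, or 14.7% of its fibroblast-like level labelled KO, and 0.778 and 0.574 in immune-like cells. Col14a1 reached 2.47 and 1.72, below its immune-like level in both libraries. Col23a1, a transmembrane collagen, reached 3.95 and 3.34, and Col8a1 3.18 and 1.20. Col8a1 had 182 UMIs in 117 epithelial-like cells labelled KO and 0 in 1435 immune-like cells, where a count of 0 allows up to 0.334 CPM. By contrast, Col1a1, Col1a2 and Col3a1 stood at 2.10, 1.36 and 3.04 in epithelial-like cells labelled KO, against 2.34, 1.11 and 5.11 in immune-like cells of the same library. These UMIs were not evenly spread: cluster 0 held 57 of the 120 Col1a1 UMIs (7.66 CPM, 13 cells), 36 of the 78 Col1a2 UMIs and 54 of the 174 Col3a1 UMIs (7.26 CPM, 13 cells) labelled KO, and no UMI of Col1a1 or Col3a1 labelled WT. Where these UMIs came from was not tested.

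The epithelial collagens were unevenly spread over epithelial-like clusters. Col9a3 was highest in cluster 12, led by the metallothionein gene Mt4 and the lipase gene Pnliprp2, at 97.0 CPM labelled KO (89.1 to 105) and 39.5 labelled WT (30.5 to 50.2). It followed at 59.4 and 32.9 in cluster 3, led by the Wnt and activin regulators Fst and Dkk2, at 43.3 and 24.3 in cluster 2, led by Tgm4, and at 24.7 and 15.5 in the cell-cycle cluster 11. Among the 7 clusters with 50 or more cells in both libraries, it was lowest in cluster 0, led by the colonocyte gene Muc3, at 3.63 and 1.93. Cluster 24, outside these 7, held 3 Col9a3 UMIs in its 437 cells labelled WT. Col9a2 had the same leading order, with 30.9 and 21.5 in cluster 12, 21.1 and 16.7 in cluster 3 and 1.34 and 0.771 in cluster 0. Col16a1 and Col23a1 were likewise highest in cluster 12, at 40.8 and 39.5 and at 13.95 and 16.7. Col2a1 was concentrated in cluster 3, with 46 of its 95 UMIs labelled KO and 42 of 64 labelled WT (4.70 and 6.28 CPM). Col4a1 had another order, with 19.6 and 20.3 in cluster 1, led by Gpx2 and Ascl2, and 4.01 and 4.78 in cluster 12.

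**Figure D4:**
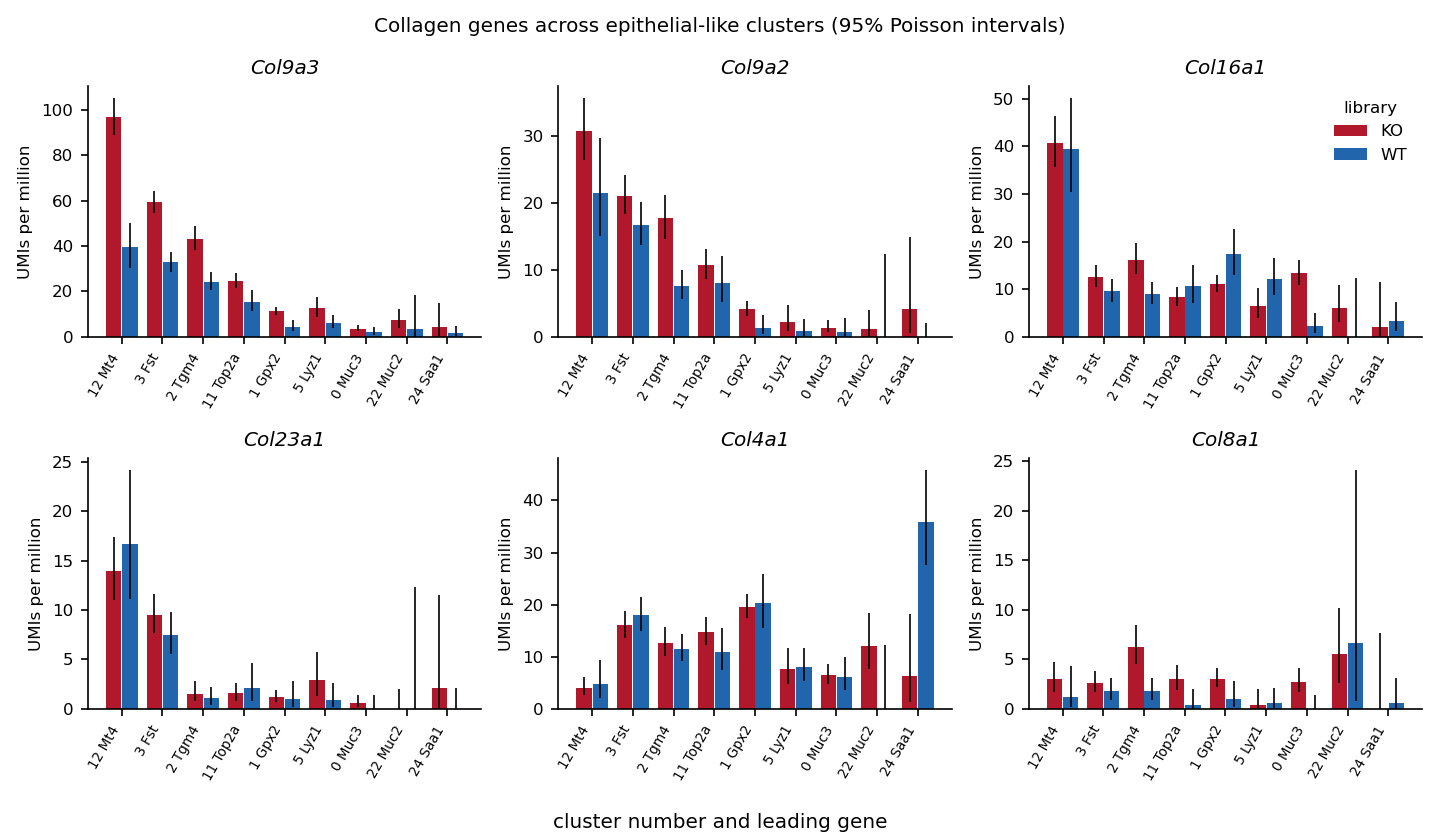
Bars give CPM in each epithelial-like cluster, named by number and leading gene, for the libraries labelled KO and WT, with 95% Poisson intervals. Col9a3, Col9a2, Col16a1 and Col23a1 were highest in cluster 12, and Col4a1 labelled WT was highest in cluster 24 (35.9 CPM).

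Cluster 24, led by Saa1, an acute-phase gene, and Duox2, held 437 cells labelled WT and 30 labelled KO. Col4a1 stood at 35.9 CPM (64 UMIs in 38 cells) and Col4a2 at 34.8 (62 UMIs in 37 cells) in the cells labelled WT, and Col4a1 at 6.20 labelled KO. The ratio of Col4a1 to Col4a2 was 1.03 (0.716 to 1.49) there, against 5.45 (3.44 to 9.03) in cluster 3 and 1.66 (1.09 to 2.55) in cluster 1 of the same library. The interval of cluster 24 lay below that of cluster 3 and overlapped that of cluster 1.

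Between the libraries, collagens made up a larger share of UMIs under the KO label in both large classes. The ratio of the shares was 1.34 (1.28 to 1.40) in epithelial-like and 1.97 (1.76 to 2.21) in immune-like cells. It ran from 1.07 to 3.58 over the 7 epithelial-like clusters with 50 or more cells in both libraries, and the interval lay above 1 in 5 of them and held 1 in 2. In cluster 24 the ratio was 0.331. Immune-like clusters differed as well. The ratio was 1.92 (1.63 to 2.25) in macrophage-like cluster 7 and 2.87 (1.54 to 5.76) in plasma-like cluster 18. In macrophage-like cluster 6 it was 1.07 (0.774 to 1.47), and in dendritic-like cluster 9 it was 0.622 (0.243 to 1.34). The mix of immune-like cells also differed, with 200 neutrophil-like cells labelled KO and 2241 labelled WT. In stromal cells the ratio was 0.721 (0.693 to 0.750) for fibroblast-like and 0.827 (0.743 to 0.923) for endothelial-like cells, on 10 and 16 cells labelled WT. This order depended on the processing. Without the 5 collagen-richest cells of each library the fibroblast-like shares were 2.243% labelled KO and 1.647% labelled WT (ratio 1.362). The endothelial-like ratio was 1.219 without doublet removal and 1.105 with classes from marker gates. No direction is read from the stromal ratios. Median UMIs per cell were higher under the KO label in each of these classes.

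Of 16 members with 50 or more UMIs in epithelial-like cells, 4 were over 2-fold higher and 1 over 2-fold lower in the library labelled KO, against 2.6% and 7.53% of all 15495 genes. The median log2 ratio was 0.43 over the 16 members and -0.02 over all genes. The 4 were Col1a1 (120 and 6 UMIs, ratio 10.2, 4.53 to 28.2), Col1a2 (78 and 10 UMIs, 3.96), Col3a1 (174 and 31 UMIs, 2.85, 1.94 to 4.33) and Col8a1 (182 and 35 UMIs, 2.64, 1.83 to 3.91). For the first 3, part of the count sat in single cells: 32 of 120 Col1a1 UMIs and 40 of 174 Col3a1 UMIs labelled KO came from 1 cell each, and 25 of 31 Col3a1 UMIs labelled WT came from 1 cell. Without the richest cell of each library the ratio was 11.2 (4.21 to 41.9) for Col1a1 and 13.2 (3.47 to 112) for Col1a2. For Col3a1 it was 11.3 (5.07 to 31.4), and for Col8a1 2.96. The ratios of Col1a1, Col1a2 and Col3a1 then rested on 4, 2 and 6 UMIs labelled WT. The size of any rise over the ratios of all cells therefore cannot be read from them. In immune-like cells, which are not a known source of these fibres, Col3a1 was also higher under the KO label, at 5.11 against 0.574 CPM (ratio 8.91). The library labelled KO held more stromal cells (56 against 10 fibroblast-like cells), and their part in the type I and III counts of other classes was not tested.

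Col8a1 differed from these 3 genes in that immune-like cells held 0 and 1 UMIs of it. It was found in 5.17% of epithelial-like cells labelled KO and 1.20% labelled WT, and at 1000 UMIs per cell in 0.589% and 0.262%. Its largest count was in cluster 2, at 6.28 against 1.79 CPM (41 and 12 UMIs). Col27a1, a fibrillar chain of cartilage and developing tissue, was the member over 2-fold lower, with 64 and 72 UMIs (ratio 0.452, 0.317 to 0.641), of which 12 of the 72 came from 1 cell. Without the richest cell of each library the ratio was 0.508.

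The type IX genes were under 2-fold apart but on large counts. The ratio was 1.77 (1.60 to 1.95) for Col9a3, 1.47 (1.26 to 1.72) for Col9a2 and 1.94 (1.22 to 3.22) for Col9a1. For Col9a3 the interval lay above 1 in 6 of 9 epithelial-like clusters and held 1 in the other 3, which were clusters 0, 22 and 24. In cluster 12 it was 2.46 (1.90 to 3.22) and in cluster 3 1.81 (1.55 to 2.12). Col16a1 was at 1.27 in the whole class, and its clusters did not point one way: the ratio was 5.76 (2.55 to 16.1) in cluster 0, 1.03 (0.784 to 1.38) in cluster 12 and 0.635 (0.463 to 0.882) in cluster 1. Col4a1 (0.95), Col4a2 (1.01) and Col23a1 (1.18) had intervals that held 1, and Col17a1 stood at 0.56 (0.39 to 0.82).

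**Figure D5:**
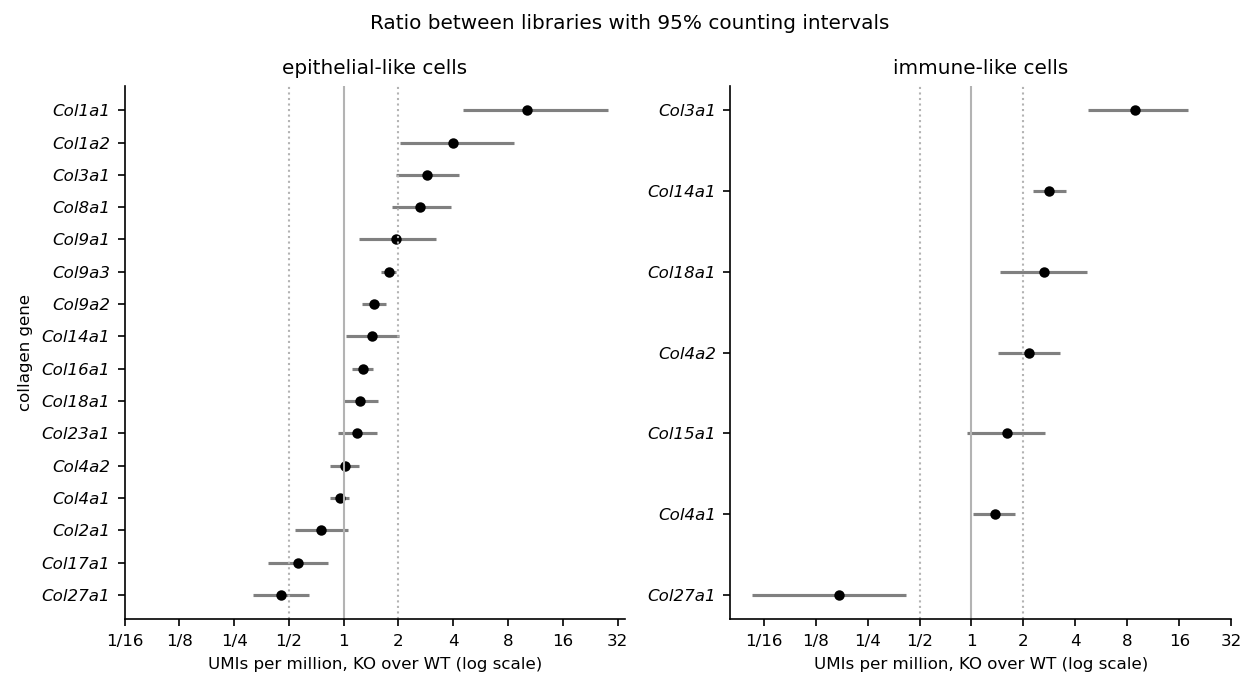
Points give the ratio of CPM, library labelled KO over that labelled WT, for each collagen gene with 50 or more UMIs in the class, on a logarithmic axis, with 95% counting intervals. Dotted lines mark 2-fold. Col1a1 and Col3a1 were farthest to the right in epithelial-like and immune-like cells, and Col27a1 lay farthest to the left in both.

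In immune-like cells, 7 members had 50 or more UMIs. Of these, 4 were over 2-fold higher (Col3a1, Col14a1, Col18a1 and Col4a2) and 1 over 2-fold lower (Col27a1) in the library labelled KO, against 5.5% and 11.2% of all 12719 genes. The median log2 ratio was 1.10 over the 7 and -0.11 over all genes. The Col4a2 call was the least stable of the 4: its ratio went from 2.15 to 1.90 without the richest cell of each library, and it did not pass 2-fold without doublet removal, with marker gates or without the 5 richest cells. Within monocyte/macrophage-like cells its ratio was 1.43 (0.864 to 2.35). Col18a1 did not pass with marker gates.

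Col14a1 was the leading collagen of immune-like cells, with 33.5% of their collagen UMIs labelled KO and 23.5% labelled WT, and 177 of its 179 and 156 of its 160 UMIs came from 1 group. Monocyte/macrophage-like cells held 43.2 CPM labelled KO (177 UMIs, 37.1 to 50.1) and 17.9 labelled WT (156 UMIs, 15.2 to 21.0). T-like cells held 1 UMI labelled KO. Within that class, cluster 7, led by the complement genes C1qa and C1qb, held 177 and 152 of the UMIs, at 71.5 and 34.4 CPM (ratio 2.08, 1.66 to 2.60). Col14a1 was found in 14.6% of monocyte/macrophage-like cells labelled KO and 7.57% labelled WT, and in 3.51% and 1.07% of them at 1000 UMIs per cell. Of T-like cells labelled KO, 0.369% held a UMI.

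Other members had small but localised immune counts. Col18a1 stood at 8.24 and 6.35 CPM in T-like cells, and at 29.1 and 24.5 in cluster 19, led by Ikzf2 and Foxp3, the transcription factor of regulatory T cells. Col27a1 in conventional dendritic-like cells labelled WT stood at 15.3 (38 UMIs in 24 of 356 cells), and only 43 such cells were found under the KO label. The whole immune-like class held 5 UMIs of Col27a1 labelled KO and 74 labelled WT. Within monocyte/macrophage-like cells it was lower under the KO label too, at 0.489 against 3.67 CPM (2 and 32 UMIs, ratio 0.133, 0.0154 to 0.521). The fibrillar chain Col11a2 had 13 and 23 immune-like and 11 and 17 epithelial-like UMIs. The fibril-associated Col20a1 had 2 and 11, and 20 and 28. Outside immune-like cells, Col27a1 stood at 80.3 and 175 in fibroblast-like and at 1.12 and 2.48 in epithelial-like cells labelled KO and WT. Col23a1 likewise had 19 UMIs in conventional dendritic-like cells labelled WT. Col4a1 in macrophage-like cluster 6, led by Tgm2 and Tgfbi, was lower under the KO label (5.05 against 13.8 CPM, ratio 0.367), while in cluster 7 it was 18.6 and 16.5.

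Genes that make, cross-link, bind or degrade collagen were read from 8 lists of 92 genes. Under the KO label, the highest of the 4 classes was fibroblast-like for 11 of 12 measured genes of prolyl and lysyl modification, 10 of 12 of the chaperone and export list, 4 of 6 of procollagen cleavage, 4 of 5 of cross-linking and 7 of 7 fibril-binding proteoglycans. It was fibroblast-like for 11 of 14 breakdown genes, 4 of 8 collagen receptors and 7 of 14 basement membrane partners, against 23.8% of all genes. In epithelial-like cells the median log2 ratio of the libraries was between -0.14 and 0.09 for 6 of the 8 lists. It was 0.47 for the proteoglycans (4 genes measured) and -0.99 for cross-linking (3 genes). The collagens' median was 0.43, against 0.09 for the 12 measured modification genes. Of these 12, 0 passed 2-fold in either direction, which is near the share of all genes (2.6% higher and 7.53% lower).

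Serpinh1, the collagen-specific chaperone of the endoplasmic reticulum, was the gene of these lists with the largest higher value in epithelial-like cells labelled KO (11.8 against 2.48 CPM, ratio 4.76, 3.73 to 6.15). It stood at 2611 and 2189 in fibroblast-like cells and at 3.89 and 0.486 in immune-like cells. Sparc, a collagen-binding matrix protein, was at 5.33 and 1.79 in epithelial-like cells (ratio 2.98), at 7423 and 4765 in fibroblast-like and at 5.45 and 0.795 in immune-like cells. Pcolce2, an enhancer of procollagen cleavage, had a ratio of 3.05, Mmp10, a stromelysin, 2.91 and the proteoglycan gene Dcn 2.24. Labelled KO, Sparc stood at about the same level in epithelial-like and immune-like cells, and Dcn was at 1.15 and 2.67. Serpinh1 was higher in epithelial-like cells (11.8 against 3.89). Where these UMIs came from was not tested.

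In epithelial-like cells, 5 of the 64 measured genes of the lists were over 2-fold higher under the KO label (7.81%, against 2.6% of all genes). Lower by over 2-fold were 8 of the 64 (12.5%, against 7.53% of all genes). They were the matrix-degrading proteases Mmp7 (442 against 1322 CPM, ratio 0.334), Mmp2 (0.416), Mmp8 (0.178) and Mmp9 (0.130), the protease Mep1b (0.439), the cross-linking enzyme Loxl2 (0.254) and the collagen receptors Itga10 (0.389) and Lair1 (0.495). Mmp7 was counted in 25258 and 38426 epithelial-like UMIs. Mmp8 and Mmp9 were higher in immune-like cells, at 48.7 and 166 and at 123 and 339 CPM, than in epithelial-like cells. In fibroblast-like cells labelled KO and WT, the collagenase Mmp13 had the most UMIs of its list, not divided by length, with 4299 and 14270 CPM. By the same count, Dcn led the proteoglycans with 5335 and 3364, and Loxl2 the cross-linking list with 294 and 450. Ppib led the modification list (931 and 375), Adamts2 procollagen cleavage (239 and 163), Itga1 the receptors (1015 and 713) and Lamb1 the basement membrane partners (548 and 163).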

How the data were processed

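Single-cell RNA sequencing of mouse colon tumour tissue gave 2 libraries, 1 per genotype. The deposited matrices hold raw UMI counts per gene and barcode, which Cell Ranger 7.2.0 produced for the authors, per the file headers. The build was GRCm39, per the submitters' processing notes; neither labels nor headers state the capture chemistry, annotation release or cell-calling rule.

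The filter kept barcodes with 200 or more genes whose mitochondrial UMIs were under 20%. Scrublet's automatic threshold marked 0.0456% and 0% of barcodes, so the highest doublet scores, 0.8% per 1000 barcodes, were removed instead (154 and 633 barcodes, labelled KO and WT). Cells were clustered with scanpy 1.11.5 (Python 3.11.15; 2000 variable genes without collagens, 30 components, 15 neighbours, Leiden resolution 1), and the stromal cluster was clustered again at resolution 0.5. A cluster took the name of the best of 27 marker lists (214 genes) with at least 3 markers detected in 10% of its cells, unless depth or leading genes spoke against it. Counts of a class were added up within each library and expressed per 1000000 UMIs of that class (CPM). Intervals (95%) are exact Poisson for levels, Clopper-Pearson for shares and conditional binomial for ratios, computed with scipy 1.17.1. Only the ratio interval and the 2-fold call were run on simulated data, which were Poisson counts. Those counts leave out the clumping of UMIs in single cells, so the simulation cannot show that the intervals hold under it. A gene was measured in a class or comparison from 50 UMIs; 0 counts allow up to 3. Differences are read at 2-fold, with no p-value. Shares of cells were also taken at 1000 UMIs per cell. Motifs were searched in RefSeq promoters (GRCm38.p6).

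Members with 50 or more UMIs are named with their values and the others by count; genes of the pathway lists are named where past 2-fold in epithelial-like cells or highest of their list in fibroblast-like cells. The members and lists were chosen with earlier results of these data known. Alternatives tried were no doublet removal, mitochondrial UMIs under 10%, at least 1000 UMIs per barcode, Leiden resolution 2, classes from marker gates per cell, equal weight per cell, leaving out the 5 collagen-richest cells of each class and library, a minimum of 20 UMIs and a fold of 1.5.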

Additional observations from a re-analysis of the deposited data

Results flagged for a closer look

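Sub-cluster 32 lay outside every named class and entered no comparison, yet collagens made up 0.494% of its UMIs in the library labelled KO (14 cells), above the 0.480% of endothelial-like cells and the 0.0109% of epithelial-like cells. It was split from the stromal cells, but its leading genes included Pyy and Ephb2, which are epithelial. Per cell, the collagen share ran from 0% through a median of 0.210% to 1.31%, at a median of 21230 UMIs. Whether these barcodes hold more than 1 cell was not tested. Barcodes removed as doublets held collagens at 0.131% of UMIs labelled KO (5330 UMIs) and 0.00958% labelled WT.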

How the results depend on the processing

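The order of the libraries changed in the stromal classes only, among the shares compared: the ratio of the collagen share labelled KO to that labelled WT was 1.362 in fibroblast-like cells without the 5 richest cells, and 1.219 and 1.105 in endothelial-like cells without doublet removal and with marker gates. The fibroblast-like ratio was 0.79 without doublet removal, 0.753 with at least 1000 UMIs, 0.993 with marker gates and 0.8572 with equal weights. Of the alternative values of the main results, 94 stayed within their counting interval or 1.5 times the count, and those given here did not. Without doublet removal, collagens made up 2.787% of fibroblast-like, 0.3146% of endothelial-like and 0.00958% of epithelial-like UMIs labelled KO and 0.006998% of epithelial-like UMIs labelled WT. With mitochondrial UMIs under 10% the values were 2.698% (fibroblast-like KO), 0.008269% and 0.005921% (epithelial-like KO and WT). With at least 1000 UMIs per barcode they were 2.756%, 0.5297%, 0.01058% and 0.007794%, in the same order as without doublet removal. Marker gates gave 3.644% in fibroblast-like and 0.6916% in endothelial-like cells labelled KO. Weighting each cell equally gave 2.466%, 0.3847% and 0.01381% in fibroblast-like, endothelial-like and epithelial-like cells labelled KO, 0.002061% in immune-like cells labelled WT, and library ratios of 1.634 (epithelial-like) and 2.811 (immune-like). Without the 5 richest cells the shares were 2.243%, 0.3984%, 0.01047% and 0.005152% in fibroblast-like, endothelial-like, epithelial-like and immune-like cells labelled KO, 0.007723% in epithelial-like and 1.647% in fibroblast-like cells labelled WT.

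Members highest in endothelial-like cells were 4 with at least 1000 UMIs per barcode and 4 with marker gates, where Col4a1 and Col4a2 joined. Members highest in epithelial-like cells were 3 without doublet removal and 2 under 10% mitochondrial UMIs, and members highest in immune-like cells were 1 with equal weights and 1 at a minimum of 20 UMIs. In epithelial-like cells, members past 2-fold higher were 7 with equal weights and 7 at 20 UMIs, and members lower were 2 without doublet removal, 0 without the richest cells, 4 at 20 UMIs and 2 at a fold of 1.5. In immune-like cells, members higher were 2 with marker gates. Col1a1, Col1a2, Col3a1 and Col8a1 in epithelial-like cells, and Col3a1, Col14a1 and Col27a1 in immune-like cells, kept their side under all 9, whereas Col27a1 in epithelial-like cells lost it under 10% mitochondrial UMIs, equal weights and without the richest cells. A minimum of 20 UMIs and a fold of 1.5 only loosen the call, so they could not remove it. The causes were not tested. No paired analysis was possible because each genotype has 1 library. The WT stromal values rest on 10 fibroblast-like and 16 endothelial-like cells, and a count of 0 in fibroblast-like cells labelled KO allows up to 4.01 CPM.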
